A study of Mus musculus with 2 samples.

Results

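The genes of glycolysis and of the cellular response to low oxygen were examined in KPR- and KPR_restored cells, a mouse lung cancer cell line labelled as before and after *Runx3* restoration. The 41 genes were listed by their known roles, with earlier results of these data known, and all 41 were found among the 23183 gene symbols of the data. They comprised 17 glycolytic enzymes, 4 glucose and monocarboxylate transporters, 3 enzymes that switch glycolytic flux, 6 HIF subunits and HIF prolyl hydroxylases, and 11 hypoxia targets with no step in glycolysis.

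Glycolysis splits glucose into pyruvate, and lactate dehydrogenase and the monocarboxylate transporters then turn pyruvate into lactate and carry it out of the cell. The hypoxia-inducible factor (HIF) is a pair of an alpha subunit (HIF-1α or HIF-2α) and ARNT that binds a short DNA core and switches on its targets. With oxygen present, the EGLN prolyl hydroxylases mark the alpha subunit for destruction by VHL, so that HIF is set mainly by protein stability. Many glycolytic genes are HIF targets, as are genes of vessel growth, pH control, collagen maturation and mitochondrial turnover, and K-Ras-driven tumours are known for strong glycolysis.

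Each condition was sequenced as 1 library of poly(A)-selected RNA. KPR- (0 h, genotype RUNX3 -/-) is an immortalized line from a KPRL/F-TAM(-) lung tumour in which adenoviral Cre, driven by a CMV promoter, had activated *K-Ras* G12D and deleted *p53* and the floxed *Runx3* allele, while a *Frt-Stop-Frt* cassette silenced the other. KPR_restored (16 h, genotype RUNX3 -/+) is labelled as the restored form of the same line, in which 4-OHT, an active form of tamoxifen, is meant to switch on FlpERT2 to cut out the cassette. Both libraries therefore share the *K-Ras* activation, the *p53* deletion, Tomato and FlpERT2. The labels list 1 μM 4-OHT for both libraries and name no low-oxygen treatment, and the effects of restoration, 4-OHT and hours in culture cannot be told apart with these samples.

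The values are FPKM, counts of fragments scaled to transcript length and library size, so levels can be compared between genes. *Runx3*, the targeted gene, had 0.348 FPKM in KPR- and 0.349 FPKM in KPR_restored, from about 28 and 29 fragments, which differ by 0.0074 on the log2 scale (95% counting interval -0.79 to 0.81). No rise was detectable at this depth in the library labelled KPR_restored, so total *Runx3* transcript did not bear out that label. The interval still allows a rise of up to 0.81. Cre deletes an exon of the floxed allele, and whether transcripts of the silenced alleles add to this total was not tested. By immunoblot, the paper reports that Runx3 protein returned and Arf was expressed in KPR- cells treated to restore *Runx3*. Those blots measured protein and not the RNA of these libraries. KPR- and KPR_restored stand below for the libraries so labelled, and every direction rests on these labels. Depth was estimated from the steps of low FPKM values as 21.9 M fragments in KPR- and 22.5 M in KPR_restored. The 8 epithelial markers all lay between 82.0 and 1931 FPKM. In contrast, *Sftpc*, *Sftpb*, *Sftpa1*, *Lamp3* and *Napsa* were listed at 0 in both libraries and *Nkx2-1* had at most 0.0444 FPKM, so the cells showed epithelial but not alveolar transcripts. The 6 fibroblast markers summed to 12.7 FPKM in KPR- and 5.33 in KPR_restored (nearly all *Col1a1*, with *Lum* at 0 in both), the 6 immune markers to 3.13 and 6.83 (nearly all *Cd68*, with *Lyz2* and *Cd3e* at 0 in both and *Ptprc* at 0 and 0.00892), and the 5 endothelial markers to 0.104 and 0.191 (*Emcn* at 0 in both). Their part in the results was not tested.

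A difference is given as log2(FPKM + 0.005) in KPR_restored minus KPR-, and a gene is called higher or lower where it differs by 0.5 or more on this scale. Genes with a mean of 1 FPKM or more over both libraries are called expressed genes, of which there were 11231. With 1 library per condition a difference has no replicate check, and no p-value was computed. The 95% counting intervals (exact Clopper-Pearson limits on estimated fragments) cover counting error between these libraries only. In bulk RNA, fewer cells that carry a transcript and less of it per cell cannot be told apart.

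Promoter sequences of 37 of the 41 genes, credited to RefSeq on GRCm38.p6, were searched over the 250 bases before the start site for the HIF-binding core, ACGTG or GCGTG, on both strands. The genes without an entry were *Slc2a3*, *Epas1*, *Ndrg1* and *Bhlhe40*. The core occurred in 34 of the 37 genes (91.9%), counting any of a gene's promoters. It did so in 63.8% of the 8594 expressed genes with a promoter entry and in 41.5% of all 27025 genes with an entry. The 37 genes had 54 entries and the 27025 genes had 32851. A gene with more entries has more windows in which to match. *Gpi1*, *Tpi1* and *Eno2* had no core in this window. The member counts take the whole window, with any bases that lie in an exon. Without such bases, *Aldoc*, *Pkm*, *Pfkfb4*, *Vegfa*, *Car9* and *Kdm3a* also had no core. The sequences below are those of *Ddit4* and *Bnip3*, which were higher in KPR_restored, and of *Ankrd37*, *P4ha1* and *Pgk1*, which were not, so that promoters with the core can be seen on both sides of the threshold. Each is the plus or minus strand in the direction of the gene, from 250 bases before the RefSeq start, without bases that GENCODE M21 places in an exon. Capitals mark the core on either strand (CACGT and CACGC are its reverse). A place where cores on both strands overlap, such as CACGTG in *Bnip3*, counts as 2.

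Ddit4 (chr10:59951835-59952020, minus strand): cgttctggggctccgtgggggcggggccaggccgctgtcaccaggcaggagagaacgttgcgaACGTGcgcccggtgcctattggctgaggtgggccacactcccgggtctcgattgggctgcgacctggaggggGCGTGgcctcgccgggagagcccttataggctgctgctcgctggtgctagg

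Bnip3 (chr7:138909520-138909756, minus strand): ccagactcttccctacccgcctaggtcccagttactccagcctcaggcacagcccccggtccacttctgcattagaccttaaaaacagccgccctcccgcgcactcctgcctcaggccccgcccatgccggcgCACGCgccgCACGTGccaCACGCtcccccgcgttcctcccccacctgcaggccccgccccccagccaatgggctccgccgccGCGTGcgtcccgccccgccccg

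Ankrd37 (chr8:45999868-46000100, minus strand): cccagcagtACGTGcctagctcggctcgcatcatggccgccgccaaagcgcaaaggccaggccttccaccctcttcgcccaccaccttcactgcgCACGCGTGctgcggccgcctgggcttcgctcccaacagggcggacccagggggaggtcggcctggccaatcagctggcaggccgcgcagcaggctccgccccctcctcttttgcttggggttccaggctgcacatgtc

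P4ha1 (chr10:59323046-59323295, plus strand): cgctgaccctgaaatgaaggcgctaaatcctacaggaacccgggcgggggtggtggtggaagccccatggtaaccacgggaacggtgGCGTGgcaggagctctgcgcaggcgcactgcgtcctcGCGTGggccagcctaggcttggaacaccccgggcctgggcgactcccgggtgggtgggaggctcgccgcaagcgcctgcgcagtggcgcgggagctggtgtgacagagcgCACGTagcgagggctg

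Pgk1 (chrX:106186850-106187099, plus strand): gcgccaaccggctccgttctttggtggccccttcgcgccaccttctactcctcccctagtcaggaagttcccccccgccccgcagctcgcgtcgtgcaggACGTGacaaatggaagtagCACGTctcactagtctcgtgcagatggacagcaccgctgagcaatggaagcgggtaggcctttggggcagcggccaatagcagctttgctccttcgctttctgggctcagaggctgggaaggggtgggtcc

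The *Ddit4* stretch held 2 cores, that of *Bnip3* 5, those of *Ankrd37* and *P4ha1* 3 each and that of *Pgk1* 2. Over the whole window, all 4 of the higher hypoxia targets with a promoter entry had the core, and so had all 5 of the others. Without bases in an exon, *Vegfa* of the higher targets and *Car9* and *Kdm3a* of the others had none. In *Vegfa* the 2 cores lay before a start within the gene, and the window before its upstream start had 0. The RUNX core, TGTGGT or TGCGGT on either strand, occurred in 8 of the 37 genes (21.6%), against 20.5% of the expressed genes. It was found in 0 of the 4 higher hypoxia targets and in 2 of the 5 others, *Car9* and *P4ha2*. A match is a stretch of letters and not a bound site.

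The glycolytic enzymes and the other hypoxia targets differed in their shift between the libraries. Among all 11231 expressed genes, 12.1% were higher and 9.29% were lower, with a median difference of 0.0086 and quartiles of -0.23 and 0.27. The 17 glycolytic enzymes had a median difference of 0.055. The 11 non-glycolytic hypoxia targets had a median of 0.65, or 0.68 over the 10 expressed ones. In these genes, 6 of 11 (54.5%) were higher by 0.5 or more and 1 (*Car9*, under the expression filter) was lower. Of the 10 expressed targets, 6 (60.0%) were higher and 0 were lower. Of the glycolytic enzymes, 3 of 17 (17.6%) were higher and 0 were lower. The share of higher genes thus lay near that of all expressed genes for the glycolytic enzymes and above it for the hypoxia targets.

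Across the 41 genes, 11 (26.8%) were higher, 3 (7.32%) were lower and 27 differed by less than 0.5. Among all 23183 genes, taken without the filter, 13.77% were higher and 12.95% were lower. *Slc2a3*, *Epas1* and *Car9* fell under the expression filter, and none of these differences reached 0.5 with a pseudocount of 1. Of the other 38 genes, 10 (26.3%) were higher and 1 (2.63%) was lower, and *Eno2* passed the filter only through its level in KPR_restored. With a threshold of 1, 5 of the 38 were higher and 0 lower, against 2.89% and 1.38% of all expressed genes. The counting interval excluded 0 for 35 of the 41 genes, 26 above and 9 below, and for 23 of 40 genes when fragments were estimated from the shortest coding transcript. At this depth that is common among expressed genes, of which 3828 lay above and 3674 below 0, while 3636 spanned it. Over all genes with an estimate, 4144 lay above 0, 4030 lay below it and 14431 spanned it. No such count over all genes is given for the shortest coding transcript.

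**Figure D1:**
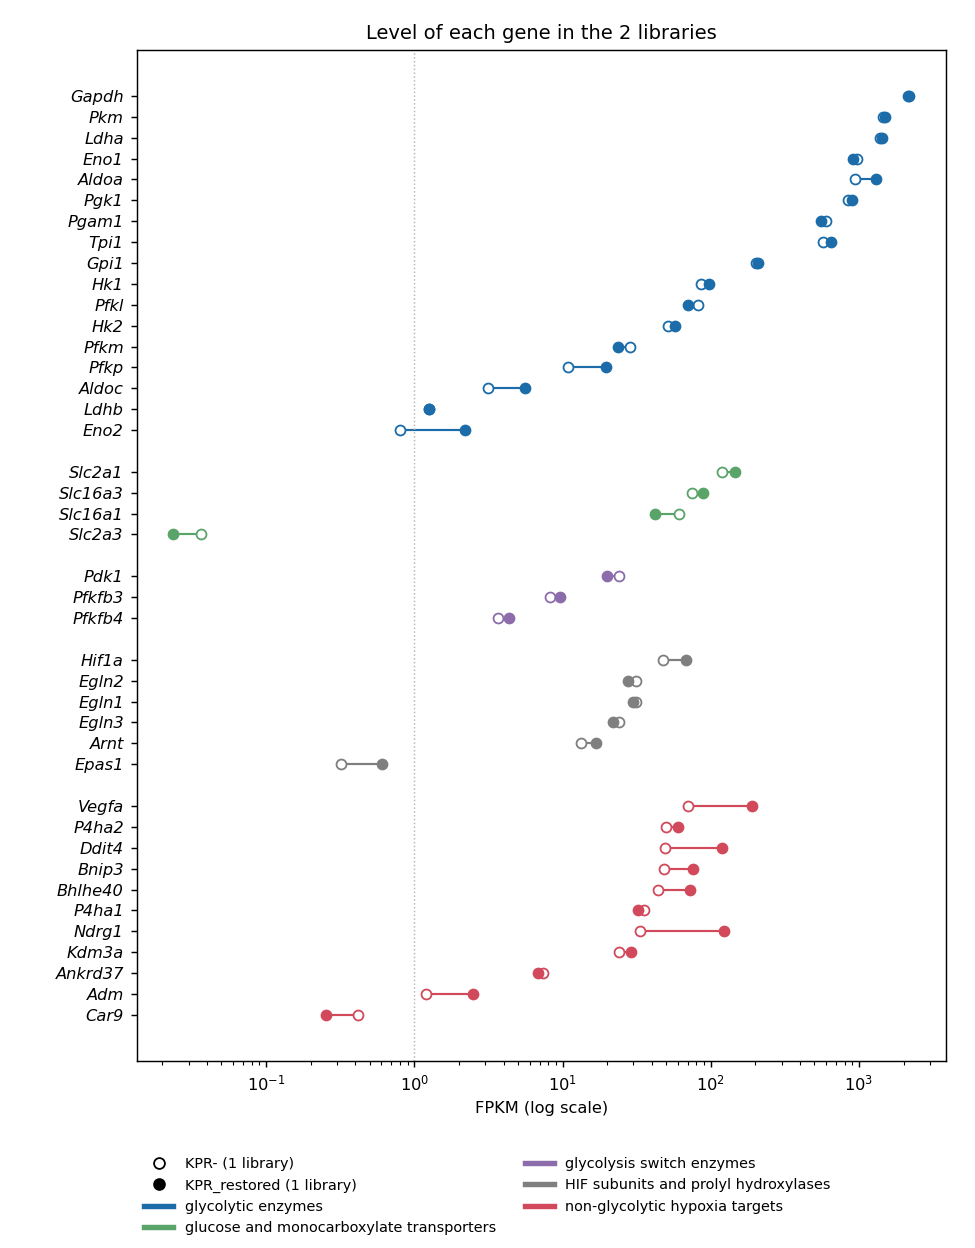
FPKM of each of the 41 genes on a log axis, with the KPR- library as an open circle and the KPR_restored library as a filled circle joined by a line, coloured by role and ordered within a role by the level in KPR-. The glycolytic enzymes span from 0.799 FPKM for *Eno2* to 2125 FPKM for *Gapdh* in KPR- with mostly short lines, and *Ndrg1* and *Vegfa* have long lines to the right; the dotted line is at 1 FPKM.

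The cells carried glycolytic transcripts at very high levels that were similar in both libraries. The 17 enzymes summed to 9349 FPKM in KPR- and 9865 FPKM in KPR_restored, which was 1.79% and 1.88% of all FPKM. The log2 ratio of the sums was 0.077. *Gapdh*, glyceraldehyde-3-phosphate dehydrogenase, had 2125 FPKM in KPR- and 2172 FPKM in KPR_restored, and was 13th of 23183 genes in mean level. *Pkm*, pyruvate kinase, had 1443 and 1488 FPKM. *Ldha*, the lactate dehydrogenase subunit that favours lactate formation, had 1387 and 1418 FPKM. On the log2 scale their differences were only 0.032, 0.044 and 0.031. Reads of *Gapdh* and several other enzymes of this group can also match near-identical pseudogene copies, which leaves their exact levels uncertain.

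*Aldoa*, the main aldolase, had 942 FPKM in KPR- and 1298 FPKM in KPR_restored, a difference of 0.46 (interval 0.44 to 0.48). It was the most shifted of the abundant enzymes and stayed under the threshold. *Eno1*, the main enolase, went the other way, with 964 and 908 FPKM and a difference of -0.086. *Eno1b*, a near-identical copy of *Eno1*, had 133 and 130 FPKM, and reads of such copies can be divided between them, so the split between *Eno1* and *Eno1b* is uncertain.

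The steps between these enzymes moved little. *Pgk1*, phosphoglycerate kinase, had 848 and 892 FPKM (difference 0.073), *Tpi1*, triosephosphate isomerase, had 575 and 651 FPKM (0.18), and *Pgam1*, phosphoglycerate mutase, had 599 and 552 FPKM (-0.12). *Gpi1*, glucose-6-phosphate isomerase, had 202 and 209 FPKM (0.055). The first step was less abundant: *Hk1* had 85.7 and 96.9 FPKM (0.18) and *Hk2*, the hexokinase often raised in tumours, had 51.7 and 57.4 FPKM (0.15). Of the 17 enzymes, 13 had a value above 0 and 4 below 0, against 5728 above and 5503 below 0 among the 11231 expressed genes. Several of the 13 lay close to 0. *Ldhb*, with 1.25 and 1.26 FPKM and a difference of 0.012, fell below 0 when the libraries were scaled to the same upper quartile.

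The 3 enzymes that were higher by 0.5 or more were minor paralogs of their step. *Pfkp*, the platelet-type phosphofructokinase, lies on chromosome 13 of GRCm38 (gene bounds here and below from GENCODE M21) from 6579768 to 6648777 (minus strand). It had 10.8 FPKM in KPR- and 19.6 FPKM in KPR_restored, a difference of 0.86 with an interval of 0.74 to 0.98. *Aldoc*, the brain-type aldolase (chromosome 11, 78322968 to 78327781, plus strand), had 3.13 and 5.55 FPKM, a difference of 0.83 with an interval of 0.56 to 1.10. *Eno2*, the neuronal enolase (chromosome 6, 124760053 to 124769673, minus strand), had 0.799 and 2.20 FPKM from about 45 and 128 fragments, a difference of 1.46 with an interval of 0.97 to 1.99. With fragments estimated from the shortest coding transcript, the interval of *Eno2* was -0.51 to 3.41 and spanned 0. *Aldoc* and *Eno2* stayed under 1% of the FPKM summed with their main paralog, *Aldoa* or *Eno1*, in both libraries, at 0.331% and 0.426% for *Aldoc* and at 0.0828% and 0.242% for *Eno2*.

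*Pfkp* held a larger share among its paralogs. Phosphofructokinase catalyses the committed step of glycolysis, and its 3 genes summed to 122 FPKM in KPR- and 114 FPKM in KPR_restored. *Pfkl*, the liver type, had 82.3 and 70.5 FPKM (difference -0.22), and *Pfkm*, the muscle type, had 28.7 and 23.5 FPKM (-0.29). The log2 ratio of the sums was only -0.0996, while the share of *Pfkp* went from 8.88% to 17.3%. The shares of *Hk1* and *Hk2* within hexokinase moved by 0.434 percentage points.

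**Figure D2:**
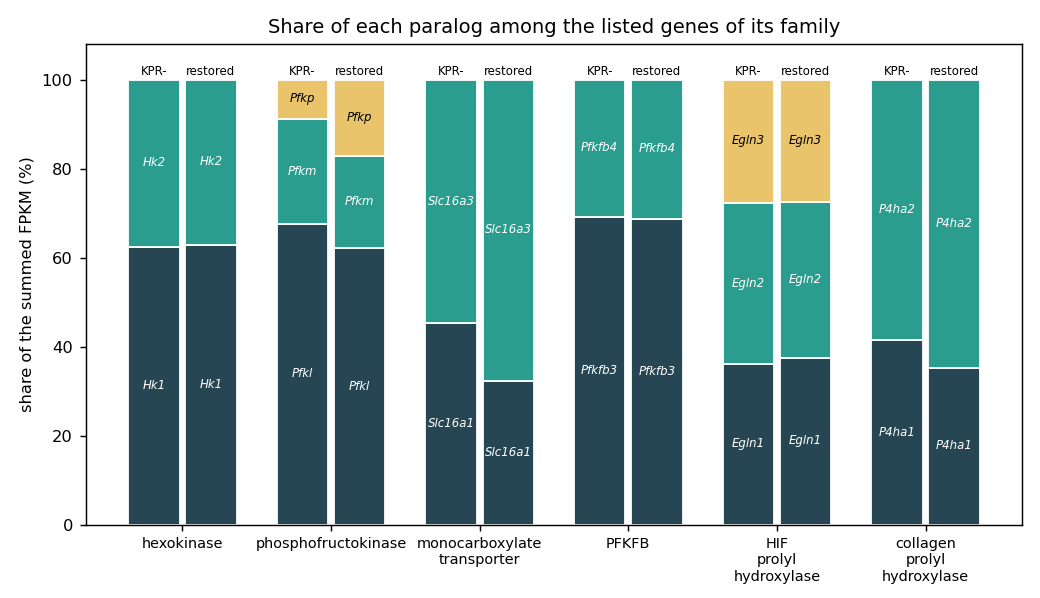
Share of the summed FPKM (%) held by each listed paralog in 6 families, with the KPR- library as the left bar and the KPR_restored library (marked restored) as the right bar of each pair, 1 library each and no error bars. The share of *Pfkp* goes from 8.88% to 17.3% and that of *Slc16a3* from 54.8% to 67.7%. The shares within *Hk1* and *Hk2*, and within *Pfkfb3* and *Pfkfb4*, move by less than 0.5 percentage points. The PFKFB bars leave out *Pfkfb1* (4.24 and 3.20 FPKM) and *Pfkfb2* (5.34 and 3.56 FPKM), which are outside the listed genes.

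*Slc2a1* encodes GLUT1, the widespread basal glucose importer, with 120 FPKM in KPR- and 146 FPKM in KPR_restored and a difference of 0.28 (interval 0.24 to 0.33). *Slc2a3*, which encodes GLUT3, had 0.0366 and 0.0237 FPKM from about 3 and 2 fragments, so its difference of -0.54 rests on too few fragments to give a direction, with an interval of -4.21 to 2.5.

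Of the lactate carriers, the MCT1 transcript was lower in KPR_restored and that of MCT4 stayed under the threshold. *Slc16a1* encodes MCT1, which can carry lactate in or out, and lies on chromosome 3 from 104638668 to 104658462 (plus strand). It had 61.2 FPKM in KPR- and 42.1 FPKM in KPR_restored, a difference of -0.54 with an interval of -0.60 to -0.48 that reaches across the threshold. *Slc16a3* encodes MCT4, a hypoxia-inducible lactate exporter, and had 74.2 and 88.2 FPKM, a difference of 0.25 with an interval of 0.20 to 0.30. Their sum went from 136 to 130 FPKM, with the share of *Slc16a3* at 54.8% and 67.7%. *Bsg*, the chaperone that brings both carriers to the membrane, had 683 and 563 FPKM, a difference of -0.28.

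None of the 3 switch enzymes passed the threshold. *Pfkfb3*, which makes the activator of phosphofructokinase, had 8.26 and 9.55 FPKM (difference 0.21), and its paralog *Pfkfb4* had 3.68 and 4.34 FPKM (0.24, interval -0.0058 to 0.47). *Pdk1*, a textbook HIF target whose product shuts pyruvate out of the mitochondrial TCA cycle, had 24.1 and 20.1 FPKM, a difference of -0.26.

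*Hif1a* and *Epas1* passed the threshold in KPR_restored, and *Arnt* and the prolyl hydroxylases that restrain HIF did not. *Hif1a* encodes HIF-1α and lies on chromosome 12 from 73901375 to 73947530 (plus strand). It had 47.3 FPKM in KPR- and 68.3 FPKM in KPR_restored, a difference of 0.53 that is just past the threshold, with an interval of 0.48 to 0.58. *Arnt*, its partner, had 13.4 and 16.9 FPKM, a difference of 0.33 (interval 0.22 to 0.44) under the threshold. *Epas1*, which encodes HIF-2α (chromosome 17, 86753700 to 86833410, plus strand), had 0.320 and 0.604 FPKM from about 37 and 72 fragments, a difference of 0.90 (interval 0.33 to 1.53). It fell under the expression filter, its interval reaches across the threshold, and with a pseudocount of 1 its difference was 0.28. *Hif1a* was the main alpha subunit transcript in both libraries, at 99.3% and 99.1% of the FPKM of the pair.

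The 3 prolyl hydroxylases were present at similar levels and differed little. *Egln1*, the main oxygen sensor in most cells, had 31.1 and 29.7 FPKM (difference -0.068, interval -0.15 to 0.016). *Egln2* had 31.2 and 27.8 FPKM (-0.17, interval -0.28 to -0.050) and *Egln3* had 24 and 21.9 FPKM (-0.13, interval -0.25 to -0.018). *Egln1* and *Egln3* are themselves HIF targets, and neither was higher in KPR_restored. HIF protein was not measured in these data.

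The hypoxia targets outside glycolysis held 6 of the 11 genes that were higher, and *Ndrg1* had the largest difference of all 41 genes. *Ndrg1*, a stress- and hypoxia-induced gene linked to differentiation, lies on chromosome 15 from 66929318 to 66969640 (minus strand). It had 33.1 FPKM in KPR- and 122 FPKM in KPR_restored, which was 3.70 times as much, a difference of 1.89 with an interval of 1.82 to 1.96. Its difference ranked 66 from the top of the 11231 expressed genes.

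*Vegfa*, the main vessel growth factor, lies on chromosome 17 from 46016993 to 46032369 (minus strand). It had 70.0 FPKM in KPR- and 189 FPKM in KPR_restored, a difference of 1.43 (interval 1.38 to 1.48, rank 144). *Ddit4* encodes REDD1, an inhibitor of mTORC1, and lies on chromosome 10 from 59949669 to 59951834 (minus strand). It had 48.7 and 119 FPKM, a difference of 1.29 (interval 1.2 to 1.37, rank 179). *Adm*, the vasodilator adrenomedullin (chromosome 7, 110627661 to 110629820, plus strand), was at a low level, with 1.21 and 2.51 FPKM from about 31 and 66 fragments and a difference of 1.05 (interval 0.41 to 1.72). The levels of *Ndrg1*, *Vegfa* and *Ddit4* were moderate in KPR- and above 100 FPKM in KPR_restored. As background, *Vegfa*, *Ddit4* and *Ndrg1* also respond to stresses other than low oxygen.

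*Bhlhe40*, a transcriptional repressor with a role in the circadian clock (chromosome 6, 108660629 to 108666925, plus strand), had 43.9 FPKM in KPR- and 71.8 FPKM in KPR_restored, a difference of 0.71 (interval 0.64 to 0.78). *Bnip3*, a mitophagy receptor of the outer mitochondrial membrane (chromosome 7, 138890836 to 138909519, minus strand), had 48.5 and 75.8 FPKM, a difference of 0.65 (interval 0.56 to 0.74). These were the remaining members of the group past the threshold.

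The other 5 genes did not share this shift. *Kdm3a*, a histone H3 lysine demethylase, had 24.2 and 29.1 FPKM (difference 0.26), and *P4ha2*, a collagen prolyl hydroxylase subunit, had 50.2 and 59.6 FPKM (0.25). Its paralog *P4ha1* had 35.4 and 32.5 FPKM (-0.12, interval -0.20 to -0.049). *Ankrd37*, a HIF target of poorly known function, had 7.41 and 6.88 FPKM (-0.11, interval -0.51 to 0.27). *Car9* encodes carbonic anhydrase IX, a surface enzyme widely used as a hypoxia marker, and had 0.418 FPKM in KPR- and 0.254 FPKM in KPR_restored from about 17 and 10 fragments. Its difference of -0.71 had an interval of -2.09 to 0.40 and so did not exceed counting error. The transcript of this hypoxia marker was low in both libraries, and *Vegfa* and *Ndrg1* had 189 and 122 FPKM in KPR_restored. The cause of this contrast was not tested.

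**Figure D3:**
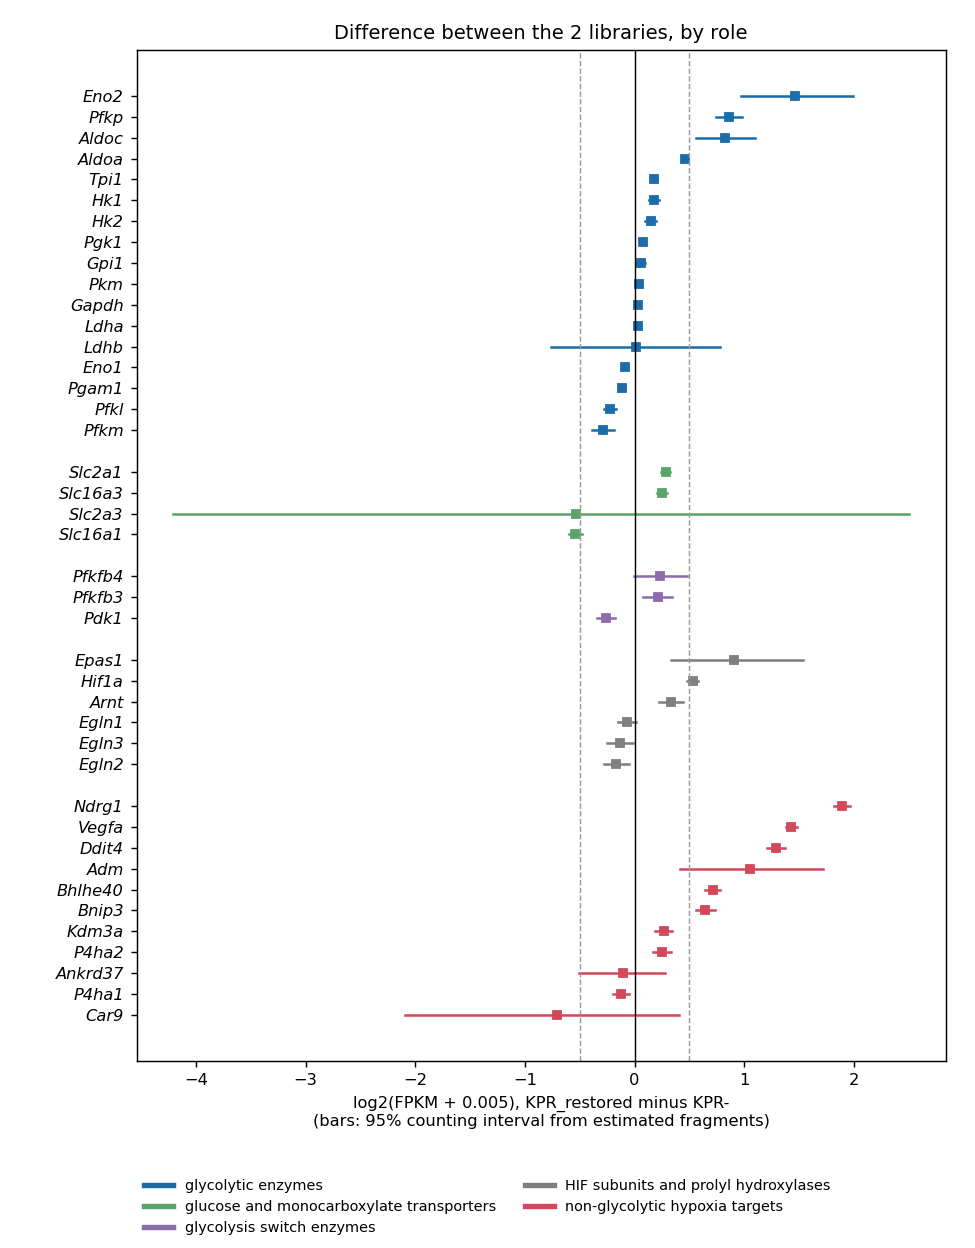
Difference of each gene in log2(FPKM + 0.005), KPR_restored minus KPR-, as a square with its 95% counting interval as a bar, grouped and coloured by role; dashed lines mark -0.5 and 0.5. The red hypoxia targets spread from -0.71 for *Car9* to 1.89 for *Ndrg1*, and most blue glycolytic enzymes sit near 0 with *Eno2*, *Pfkp* and *Aldoc* at the right.

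The difference of medians between the 11 hypoxia targets and the 17 glycolytic enzymes was 0.59 over all members and 0.62 over the expressed ones. When *Egln1* and *Egln3* were counted among the hypoxia targets, the median of the targets was 0.46 and the difference was 0.40. The summed FPKM of the 11 targets went from 363 in KPR- to 709 in KPR_restored, a log2 ratio of 0.97, in contrast to 0.077 for the summed enzymes.

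**Figure D4:**
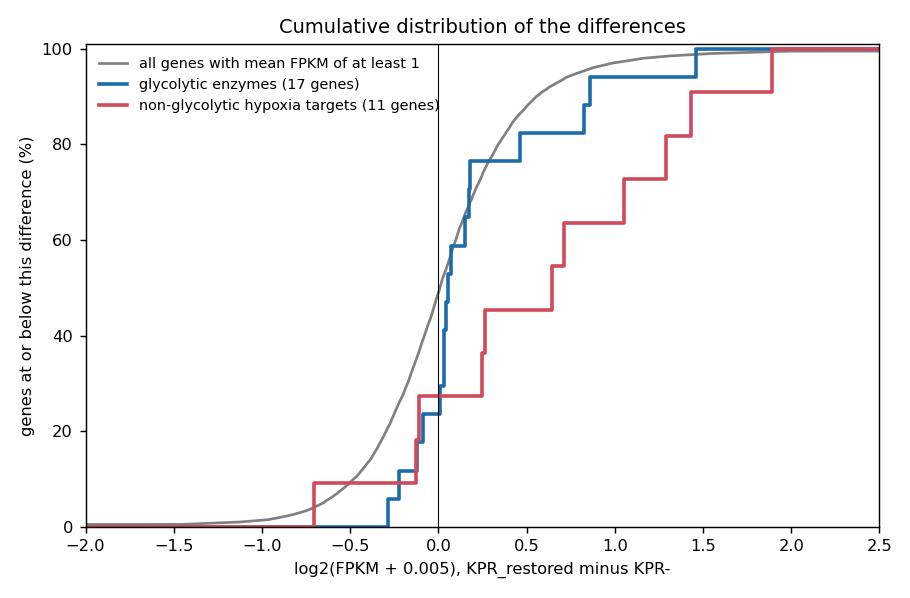
Cumulative share of genes (%) at or below a given difference in log2(FPKM + 0.005), KPR_restored minus KPR-, for the glycolytic enzymes (17 genes, blue), the non-glycolytic hypoxia targets (11 genes, red) and all expressed genes (grey). The blue curve crosses 50% at 0.055 near the grey curve at 0.0086, and the red curve crosses it at 0.65.

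Longer lists of genes outside the 41 were compared in the same way. Of 42 other glycolysis and glycogen genes, 25 were expressed, and 4 of these (16%) were higher and 2 (8.00%) were lower in KPR_restored, with a median of 0.022. Both shares lie near those of all expressed genes, 12.1% and 9.29%. *Gys1*, glycogen synthase, had 25.8 and 44.0 FPKM (difference 0.77), *Pdk2*, a pyruvate dehydrogenase kinase, had 1.18 and 1.84 FPKM (0.64), and *Slc2a8*, which encodes GLUT8, had 4.90 and 7.28 FPKM (0.57). The lower genes were *Fbp2*, a fructose-bisphosphatase of gluconeogenesis, with 2.82 and 0.903 FPKM (-1.64), and *Pfkfb2*, with 5.34 and 3.56 FPKM (-0.59).

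Of 65 other HIF pathway and hypoxia genes, 54 were expressed, and 18 of these (33.3%) were higher and 4 (7.41%) were lower, with a median of 0.24. The share of higher genes lies above the 12.1% of all expressed genes, and that of lower genes lies near their 9.29%. The list holds regulators of HIF as well as targets, so these are not shares of targets alone. *Hmox1*, heme oxygenase, had 15.1 and 56.2 FPKM (difference 1.90), *Stc2*, a secreted glycoprotein, had 6.66 and 19.8 FPKM (1.57), and *Hilpda*, a hypoxia-inducible lipid droplet protein, had 45.4 and 123 FPKM (1.44). The largest falls were those of *Gpd1l* with 9.68 and 5.38 FPKM (-0.85), *Tfrc*, the transferrin receptor, with 137 and 80.2 FPKM (-0.78), and *Car12*, a further surface carbonic anhydrase, with 5.16 and 3.09 FPKM (-0.74). Among the regulators of HIF, *Vhl* had 8.92 and 10.4 FPKM (0.23) and *Hif1an*, the asparaginyl hydroxylase that blocks HIF activity, had 13.6 and 11.5 FPKM (-0.24).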

How the data were processed

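Poly(A) RNA of 1 KPR- and 1 KPR_restored library was sequenced as paired-end reads. The authors trimmed the reads, mapped them with TopHat to mm10 (the GRCm38 assembly), estimated FPKM values with Cufflinks and deposited 1 value per gene and library. The paper also names a geometric normalization of read counts with EdgeR. Versions and the annotation are not given in the sources used here. Reads that match near-identical copies or pseudogenes can be divided between genes.

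The members and gene lists were chosen with earlier results of these data known. Differences were log2(FPKM + 0.005), on the deposited scale, with a threshold of 0.5. All members were named, with full values for those past 0.5, the 5 most abundant enzymes and the HIF genes, and with the 3 largest rises and falls past 0.5 of each further list. Further genes (*Bsg*, *Vhl*, *Hif1an*, *Eno1b*) were named after their values were seen.

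Fragments were estimated from the longest GENCODE M21 transcript with a RefSeq counterpart, with a mean fragment length of 215 bases. Of single-length genes with 0.5 to 5.5 fragments, 77.9% in KPR- and 79.4% in KPR_restored lay within 0.1 of a whole number. Depth and fragment length were chosen for closeness to whole numbers in single-length genes, so these shares are no independent check. The steps were tested on data simulated for single-length genes, which does not cover genes with several transcript lengths. Of the symbols, 22148 matched directly and 649 by a synonym. The tools were matplotlib 3.10.9, scipy 1.17.1, pandas 2.3.3 and numpy 2.4.6 under Python 3.11.15. Alternatives were other pseudocounts, filters, thresholds, scalings, group limits and transcript lengths.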

Additional observations from a re-analysis of the deposited data

How the results depend on the processing

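No paired analysis was possible because each group holds 1 library. With pseudocounts of 0.1 and 1 and with scaling to the same FPKM total, the same upper quartile or the median gene, 201 of 205 recomputed differences of the 41 genes kept their side of the threshold, and those past it kept their direction. The other 4 were those of *Slc2a3* with both pseudocounts and of *Epas1* and *Car9* with a pseudocount of 1, all of low level, which no longer reached 0.5. The scalings shifted all genes by at most 0.022. No library could be left out. With no filter, 3 members rather than 1 were lower, the added genes being *Slc2a3* and *Car9*. A filter at a mean FPKM of 5 left 7 members higher and 1 lower. The share of all genes past the threshold at that filter was not computed, so these counts have no baseline. With a threshold of 1, 5 members were higher and 0 lower, against 2.89% and 1.38% of all expressed genes. With *Egln1* and *Egln3* among the hypoxia targets, their median was 0.455 and its distance from the glycolytic enzymes 0.40. The counting interval excluded 0 for 23 of the 40 members with an estimate when the shortest coding transcript was used, because fewer fragments are then estimated, and for 34 of 41 with the shortest coding transcript that has a RefSeq counterpart, chosen after seeing the data.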
